A study of Mus musculus with 100 samples.

Results

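Allele-specific expression was measured in 4 lines of mouse induced pluripotent stem cells that carry a BL6 genome from the mother and a CAST genome from the father. For each gene and library, the reads that overlapped a base differing between the strains were split into maternal (BL6) and paternal (CAST) reads, and both counts came from the same library. The genes described here lie on chromosomes 2, 3, 5, 7, 9, 10, 13, 14, 17, 18 and 19 and had at least 20 such allelic reads in each of the 12 libraries of the 4 lines. There were 4246 of them among 14327 genes on these 11 chromosomes and 25965 genes in all. Chromosomes that departed from balance as a whole in a group, and the sex chromosomes, were not used here.

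The lines F KSR2 and F KSR4 (female) and M KSR3 and M KSR5 (male) were each expanded from 1 colony and were sequenced as 3 libraries per line, which the submitters call biological triplicates. The fibroblasts they came from were taken from mid-gestation F1 embryos of a BL6 female, which carried the doxycycline-inducible i4F cassette of Oct4, Sox2, Klf4 and c-Myc, and a CAST male. All 4 lines were therefore BL6 × CAST hybrids with the cassette on the maternal genome, were reprogrammed with doxycycline in Knockout Serum Replacement (KSR) medium and were collected after doxycycline had been withdrawn. Female MEFs (mouse embryonic fibroblasts) of the same cross and TX 2i ESCs, a female BL6 × CAST embryonic stem cell line kept with inhibitors of MEK and GSK3, served for comparison with 3 libraries each. Both lines of a sex came from 1 embryo, and the effects of sex and of embryo cannot be separated. The cross was made in 1 direction only, so the strain of an allele, its parent of origin and a preference of the aligner for the BL6 sequence cannot be told apart.

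In a hybrid, both alleles of a gene sit in the same nucleus and meet the same transcription factors, so an allele difference is usually carried on the chromosomes themselves. Known sources are sequence variants in promoters, enhancers or the transcript, genomic imprinting, in which methylation inherited from a parent silences that parent's copy, and the loss or gain of a chromosome segment. Inherited variants are present in every line of a cross, whereas other changes can arise in a single clone during reprogramming or culture. None of these sources was tested here.

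The 12 libraries held 2511175 to 3153648 allelic reads (a median of 18.3% of the reads on genes), and a median member had 133 to 185 allelic reads in a library. At 20 reads an even split has a Wilson 95% interval of 29.9 to 70.1% maternal, at the median of 167 reads it is 42.2 to 57.2%, and at 327 reads 44.5 to 55.2%. These intervals cover counting error only. The library medians of the maternal share were 51.5 to 52.2%, so each log2 ratio of maternal to paternal reads was taken relative to its library's median (a shift of 0.09 to 0.13). The deposited values, scaled separately for each allele, place the library medians of the same genes at −0.42 to −0.22. All 12 KSR-iPSC libraries had summed levels of the pluripotent markers of 3674 to 5992 RPM (reads scaled to library total), with all 8 markers detected, against 1.68 to 2.52 RPM and 3 of 8 markers in the MEFs.

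Some libraries stood apart within their line. M KSR5 replicate 3 had a summed fibroblast marker level of 249 RPM, with 14 of 15 markers detected, against 20.1 to 95.7 in the other 11 KSR-iPSC libraries and 28880 to 41783 in the MEFs. On the chromosomes left out, its maternal share of chromosome 15 was 56.0%, while M KSR5 replicates 1 and 2 were both at 65.1%. F KSR4 replicate 3 (chromosome 8 at 56.5%, against 65.9% in both other libraries) and F KSR2 replicate 3 (chromosome 12 at 51.4%, against 56.7 and 57.5%) also differed from their line. Without M KSR5 replicate 3, F KSR2 replicate 3 or F KSR4 replicate 3, the 658 shared calls described next became 559, 591 and 619.

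A majority of the genes used both alleles about equally. The line means of the maternal share lay between 40 and 60% in each of the 4 lines for 2746 of the 4246 genes (64.7%). A bias was called in a line where the mean log2 ratio of its 3 libraries differed from 0 in limma with a Benjamini-Hochberg adjusted p below 0.05, and a bias was called shared where this held in each of the 4 lines on the same side. By this rule 369 genes were shared with the maternal allele higher (8.69% of the genes tested) and 289 with the paternal allele higher (6.81%). Their median absolute log2 ratio was 0.81 against 0.23 over all members, and 247 of the 658 had a mean log2 ratio of at least 1 in either direction. The maternal side held 56.1% of the shared calls after centring, 71.0% without centring and 15.4% with the deposited values, so a small shared bias has a direction only relative to the library median.

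Another 1397 genes were called in some lines only or with mixed signs, and 2191 in no line. Counting the shared genes too, the genes called numbered 1142 in M KSR3, 1181 in M KSR5, 1276 in F KSR2 and 1356 in F KSR4. The share of genes called shared rose with depth, from 8.66% among the members with the fewest reads (the lowest of 4 equal groups, with a median of 64 allelic reads) through 10.9% and 15.8% to 26.6% in the group with the most. The median SD between replicates was 0.20 in M KSR3, 0.21 in M KSR5, 0.22 in F KSR2 and 0.29 in F KSR4 on the log2 scale. The test pooled the spread of a gene over the 4 lines. By chromosome, the shared genes made up between 10.6% (chromosome 19) and 22.2% (chromosome 18) of the members.

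**Figure D1:**
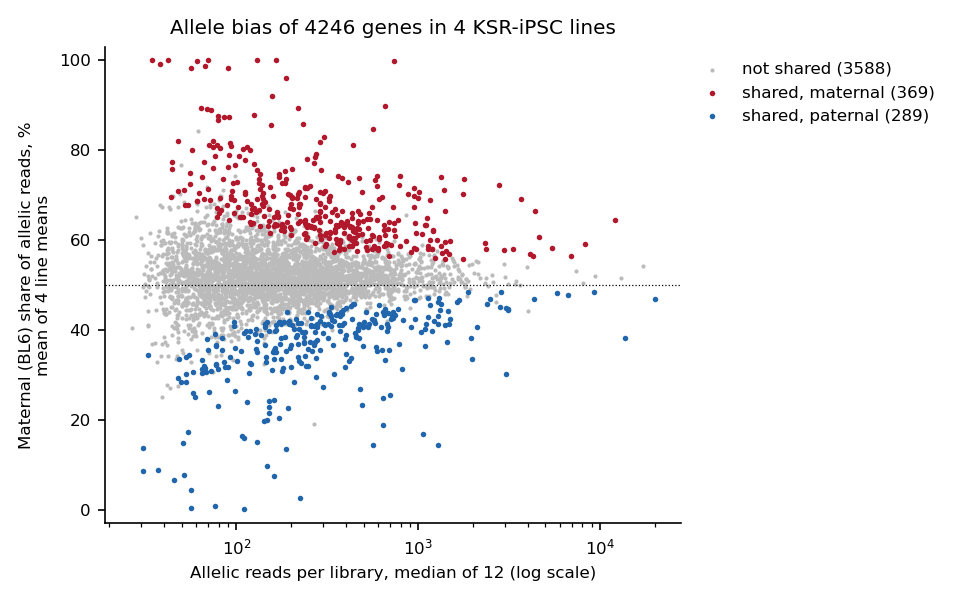
Each point is 1 of the 4246 genes, with its median number of allelic reads per library on a log scale and the mean maternal share of the 4 lines in percent; colours mark the 369 genes shared on the maternal side and the 289 shared on the paternal side. Most genes lie near 50%, and the coloured points spread to 0 and 100%.

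All 12 libraries were beyond 2-fold on the maternal side for 47 shared genes (1.11% of the genes tested) and on the paternal side for 38 (0.895%). Predicted genes, pseudogenes and ribosomal protein genes, whose reads can be split with near-identical copies, made up 12 of the 47 and 12 of the 38. Of all 4246 members, 294 were of these classes, and the part of read assignment in the strong biases was not tested. These classes were left out of the ranking below. In 12 members at least 90% of the reads were maternal in all 12 libraries, and in 4 members at most 10%. No paternal read was seen in any of the 12 libraries for 5 members, whereas every member had maternal reads.

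The strongest maternal bias among named protein-coding genes was seen for Clca4, Gc, Nphs1, Psma8, Kirrel2, Car2, Dpysl3 and Mep1b. Gc (chromosome 5, 89417511 to 89457898), which encodes the vitamin D-binding protein of plasma, had 820 maternal and 0 paternal reads over the 12 libraries, which allows a paternal share of up to 0.366%; with 3 reads taken as the limit of a count of 0 over the group, its maternal allele was at least 273-fold higher. Clca4 (chromosome 3, 144822623 to 144849357), of the family of calcium-activated chloride channel regulators, had 264, 130 and 224 maternal reads and no paternal read in F KSR2, M KSR3 and M KSR5, and 181 maternal reads and 1 paternal read in F KSR4. Every library of the 4 lines was between 98.3 and 100% maternal for this gene.

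Nphs1 and Kirrel2, which encode the cell adhesion proteins nephrin and filtrin of the kidney filter, are neighbours on chromosome 7 (30458315 to 30487223 and 30447534 to 30457690). The maternal share of Nphs1 was 98.5% ± 0.933 in M KSR5, 96.8% ± 0.355 in F KSR2 and 99.5% ± 0.802 in F KSR4 (SD, n = 3), and M KSR3 had 107 maternal and 0 paternal reads. For Kirrel2 the share ran from 93.8 to 100% over the 12 libraries. The pair was thus strongly maternal in all 4 lines, with overlapping libraries between lines.

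Psma8 (chromosome 18), a proteasome subunit known from the testis, ran from 95.3 to 100% with a median of 98.3%. Dpysl3 (chromosome 18, 43320979 to 43438286), a phosphoprotein of the cytoskeleton in neurons, had maternal shares of 89.3% ± 6.45 in M KSR3, 94.2% ± 3.01 in M KSR5, 93.7% ± 0.617 in F KSR2 and 91.3% ± 2.27 in F KSR4. Mep1b, the beta subunit of the metalloprotease meprin, had the widest range of the 8 genes, from 79.7 to 100%. Car2 (chromosome 3, 14886426 to 14900769), which encodes carbonic anhydrase 2, was above 90% in each library, with M KSR3 as the lowest line.

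The paternal counterparts were Gstp2, Oas1a, Klb, Tnfrsf23, Mmrn2, Ulk4, Tgm1 and Ssh1. Gstp2 (chromosome 19, 4040351 to 4042165), a glutathione S-transferase of the pi class, had maternal shares of 3.05% ± 1.08 in M KSR3, 1.21% ± 0.747 in M KSR5, 3.23% ± 1.65 in F KSR2 and 2.77% ± 0.576 in F KSR4, a mean log2 ratio of −5.55 (SE 0.127, adjusted p = 4.73e-20). Ssh1 (chromosome 5, 113937094 to 113993894), a phosphatase that activates cofilin, was the best covered of the 16 genes with 337 to 834 allelic reads in a library. Its maternal reads made up 12.7% ± 2.97 in M KSR3, 14.4% ± 3.08 in M KSR5, 12.6% ± 3.36 in F KSR2 and 17.7% ± 3.07 in F KSR4.

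The other paternal genes were covered by fewer reads. Oas1a, an interferon-induced synthetase of 2′-5′ oligoadenylates, ran from 0 to 10.5% maternal with a median of 4.49%. Mmrn2, an extracellular matrix protein of blood vessels, ran from 2.59 to 17.1%, and Tgm1, a transglutaminase of the skin barrier, from 4.55 to 21.6%. Ulk4, a relative of the autophagy kinases, was covered by 22 to 63 reads only and ran from 0 to 28.0%, and Tnfrsf23, a decoy receptor for TRAIL, by 20 to 71 reads from 0 to 17.9%. Klb, the co-receptor beta-klotho of endocrine FGFs, ran from 0 to 25.8% and differed between lines, as described further on.

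**Figure D2:**
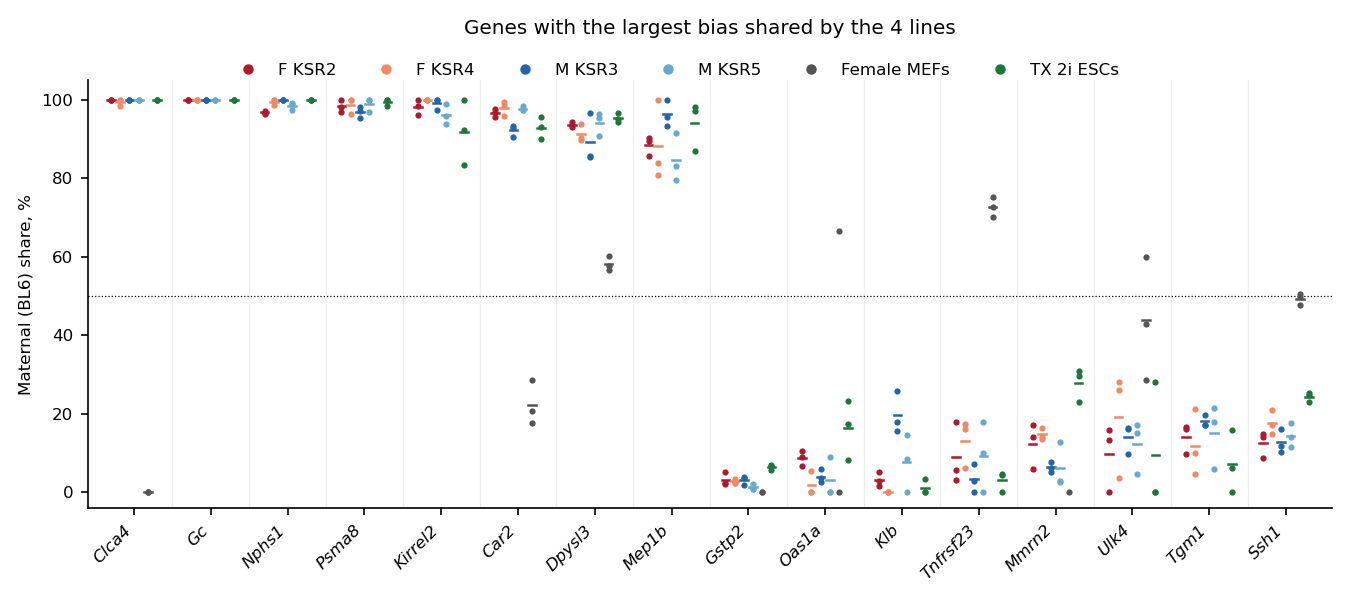
Maternal share in percent for the 8 genes ranked highest on the maternal and on the paternal side; each dot is 1 library, coloured by group, with a short bar at the mean of 3 libraries. The dots of the 4 KSR-iPSC lines stay above 79% for the maternal genes and at or below 28.0% for the paternal genes, while the MEFs lie on the other side for Clca4, Car2 and Tnfrsf23.

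A number of the 85 strongly biased genes were direct neighbours. Besides Kirrel2 and Nphs1, these pairs were Rpl28 and Ube2s on chromosome 7 (14.5 and 33.6% maternal over the 4 lines), Zfp553 and the gene whose symbol the table holds as the date Sep-01 (83.0 and 84.8%), and Ncoa4 and Timm23 on chromosome 14 (20.5 and 24.5%). Both members of each pair were biased to the same side.

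Most strong biases were also present in the TX 2i ESCs, and fewer in the MEFs. Of the 47 maternal genes, 44 had at least 20 allelic reads in each TX 2i ESC library and 36 were beyond 2-fold on the same side in all 3; for the 38 paternal genes these counts were 36 and 35. In the MEFs, 14 of 29 maternal genes and 13 of 24 paternal genes with at least 20 reads per library were beyond 2-fold on the same side in all 3 libraries, and 1 paternal gene, Tnfrsf23, was beyond 2-fold on the opposite side. With at least 1 read in each MEF library, a minimum chosen after seeing the data, these counts were 16 of 39 and 17 of 30, and 2 maternal genes, Car2 and Clca4, were beyond 2-fold on the opposite side as well. At the minimum of 20 reads, the median maternal share of the maternal genes was 84.0% in the TX 2i ESCs and 71.6% in the MEFs, against 83.9 and 81.1% for the same genes in the KSR-iPSCs.

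Clca4, Car2, Dpysl3, Tnfrsf23 and Ssh1 changed most visibly between the cell types. The MEFs had 0 maternal and 37 paternal reads of Clca4, which allows a maternal share of up to 8.11%, and the TX 2i ESCs 188 maternal and 0 paternal reads. Car2 was at 28.6, 20.7 and 17.6% maternal in the MEFs, with 14 maternal and 56 paternal reads in total, whereas the TX 2i ESCs were at 92.9% ± 2.76. Car2 and Clca4 had too few MEF reads for the test across all 18 libraries, so their difference from the MEFs is a description.

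Dpysl3 was at 58.1% ± 1.77 in the MEFs, a log2 difference of 3.21 (SE 0.302, adjusted p = 3.53e-09) between the KSR-iPSCs and the MEFs, and at 95.3% ± 1.11 in the TX 2i ESCs. Ssh1 was balanced in the MEFs at 49.3% ± 1.49, a log2 difference of −2.60 (adjusted p = 9.58e-14). Tnfrsf23 was at 75.2, 70.1 and 72.8% maternal in the MEFs and at 4.35, 0 and 4.65% in the TX 2i ESCs, so the MEFs lay above every KSR-iPSC library and the TX 2i ESCs among them (log2 difference to the MEFs −5.04, adjusted p = 5.78e-09).

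Single lines were set against the mean of the other 3 lines. In F KSR2, 36 genes were more maternal (0.848% of the genes tested) and 8 more paternal (0.188%) than in the other lines. In F KSR4 these counts were 3 (0.0707%) and 8 (0.188%). In M KSR3, 20 genes were more maternal (0.471%) and 28 more paternal (0.659%), a share of 41.7% on the maternal side that became 14.8% with the deposited values. In M KSR5 the counts were 3 (0.0707%) and 9 (0.212%). The 4 contrasts use the same 12 libraries, so a gene that stands out in 1 line also enters the reference of the other contrasts.

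The calls of F KSR2 were concentrated at the end of chromosome 9. From Crtap to Fyco1 (114375134 to 123851899), the last 40 members of the chromosome spanned 9.48 Mb, and 28 of the 44 genes called in F KSR2 lay there, all of them more maternal. The stretch was delimited after the values were seen, as members whose running median over 9 neighbouring genes differed from the other lines by at least 0.5 on the log2 scale, and it is a description with no test of its own; the genes named from this and the following stretches were chosen then too. Over the 40 genes, the median maternal share was 70.0, 69.0 and 68.2% in the 3 F KSR2 libraries and 51.4 to 55.0% in the 9 libraries of the other lines. Summed over all reads of these genes, the shares were 69.5, 69.3 and 69.1% against 53.3 to 55.3%, so the groups did not overlap.

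The shift was of similar size along the stretch, with a median log2 difference of 0.98. Ctnnb1 (120929216 to 120960507), which encodes β-catenin, the transducer of Wnt signalling, was at 63.3, 62.9 and 65.2% maternal in F KSR2 against line means of 47.8 to 50.2% in the other lines (log2 difference 0.90, SE 0.068, adjusted p = 1.05e-08). Rpsa, the ribosomal protein known as the laminin receptor, was at 71.0, 70.5 and 69.9% against 55.2 to 55.5% (0.94, adjusted p = 1.78e-12), though it has near-identical pseudogene copies. Golga4, a golgin of the trans-Golgi network, was at 69.4, 65.8 and 69.3% against 49.5 to 51.9% (1.06, adjusted p = 4.78e-07). In each of these genes all 3 F KSR2 libraries exceeded the mean of each other line.

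Genes with fewer maternal than paternal reads in the other lines were shifted as well. Cmtm6, a membrane protein that stabilises PD-L1, was at 60.5% ± 1.73 in F KSR2 and between 39.2 and 42.1% in the other lines (1.13, adjusted p = 5.89e-06). Higd1a, a hypoxia-induced mitochondrial protein, was at 51.1% ± 4.26 against 30.7 to 35.6% (1.10, adjusted p = 0.0390). Trim71, balanced in the other lines and an RNA-binding ubiquitin ligase of early embryos, was at 69.1% ± 1.95 against 47.4 to 50.0% (1.23, adjusted p = 9.14e-05). The exceptions were Ulk4, already almost wholly paternal (9.74% in F KSR2), and the predicted gene Gm9846, at 100% in every group. The members before Crtap, namely Epm2aip1, Pdcd6ip, Clasp2 and Ubp1, differed from the other lines by −0.27 to 0.13.

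**Figure D3:**
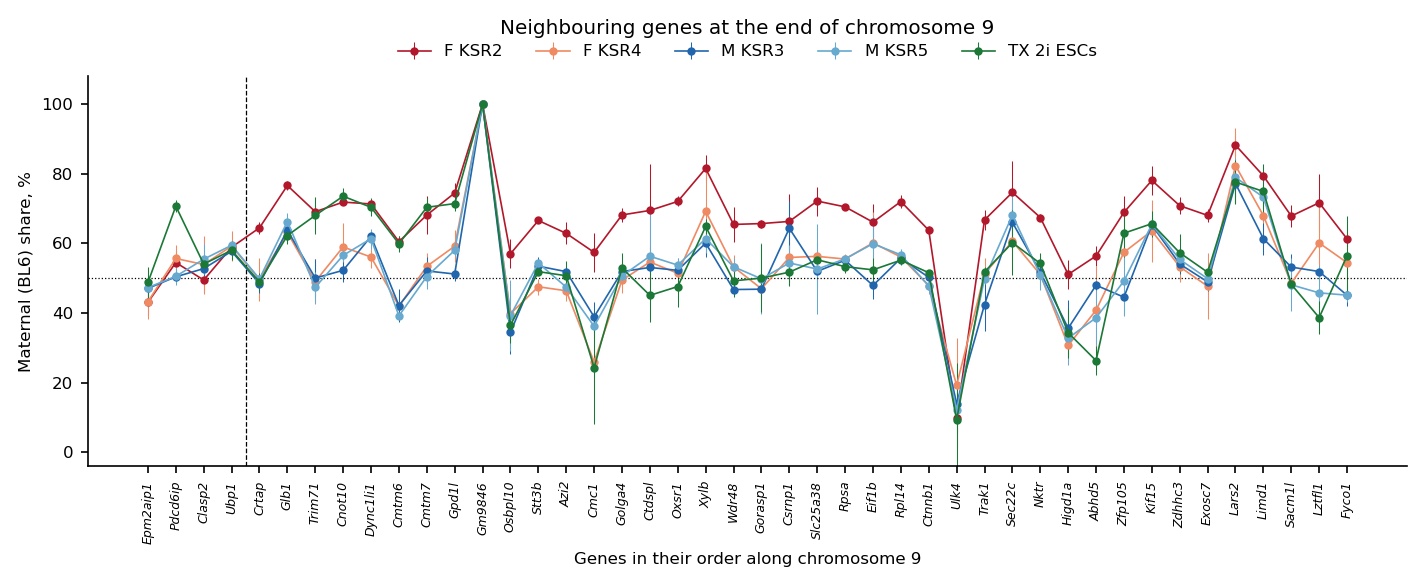
Maternal share in percent for the members at the end of chromosome 9 in their order along the chromosome; symbols and bars give the mean and SD of 3 libraries for each line and the TX 2i ESCs, and the dashed line marks the start of the stretch. F KSR2 lies above the other lines from Crtap on except at Gm9846 and Ulk4, whereas the members before it differ by −0.27 to 0.13 on the log2 scale.

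The level of the same stretch was also raised in F KSR2. Over 47 genes of the interval with a mean of at least 2 on the log2 RPM scale, all reads counted, the median level relative to the other lines and to all genes was 0.58, 0.57 and 0.62 higher (log2) in the 3 F KSR2 libraries, and 45 of the 47 genes were higher. In the other 3 lines, each against the rest, this median was −0.21 to −0.16. The rest then includes F KSR2, so these negative values are not independent of its higher level. More maternal reads and more reads in total thus went together here. Whether this reflects a difference in copy number was not tested.

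Because the female group holds F KSR2, 14 of these genes were called in the comparison of the sexes as well. The TX 2i ESCs shared part of the pattern: over the 6 genes from Trim71 to Gpd1l their median maternal share was 70.3%, with 69.7, 68.8 and 68.7% of the summed reads maternal, whereas the other 34 genes of the stretch were at 51.8%. Pdcd6ip, an ESCRT-associated protein just before the stretch, was also at 70.7% ± 1.74 in the TX 2i ESCs. The median of the 6 genes was 70.2% in F KSR2, 51.6% in M KSR3, 54.7% in F KSR4, 53.3% in the MEFs and 53.5% in M KSR5. F KSR2 and the TX 2i ESCs thus stood apart from the 4 remaining groups there. The 6 genes were chosen after the values were seen, so this separation is a description and not a test.

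A shorter stretch on chromosome 3 set M KSR3 apart. From Fam63a to Mcl1 (95281345 to 95663176), the 7 members Fam63a, Lass2, Setdb1, Arnt, Hormad1, Ensa and Mcl1 all lay on the maternal side of the other lines, with a median difference of 0.82. Their summed reads were 66.4, 67.2 and 65.7% maternal in the M KSR3 libraries and 49.4 to 54.4% in the 9 others. Mcl1, which protects cells from apoptosis, was at 59.3, 62.0 and 59.6% against 44.7 to 48.8% in the other lines (0.82, SE 0.080, adjusted p = 1.34e-06). Setdb1, the histone H3 lysine 9 methyltransferase that silences retroviral elements, was at 70.1, 67.5 and 65.2% against 50.0 to 54.8% (0.90, adjusted p = 0.000168). All 3 libraries of M KSR3 were above the other line means for both genes.

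Of the 7 genes, Fam63a was the remaining call (80.4% ± 1.91, adjusted p = 0.0124), and Ensa, the inhibitor of phosphatase 2A in mitosis, had the largest difference without passing the test (1.06, adjusted p = 0.0733). None of the 4 members on each side was called: the nearer neighbours Cdc42se1, Prune, Tars2 and Rprd2 differed by −0.24 to 0.34, Gabpb2, Prpf3 and Anp32e by −0.18 to 0.01, and Sema6c by −0.88 (adjusted p = 0.414). The level over 9 genes of the interval was 0.03, 0.29 and 0.36 higher in M KSR3, with 7 of 9 genes higher. In M KSR5 replicate 3 the median share of the 7 genes was 67.7% while their summed reads were at 52.3%.

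F KSR2 had weaker runs towards the paternal side at the end of chromosome 2. From Tcfl5 to Lime1 (180621956 to 181383628) 11 members had a median difference of −0.53, and from Znf512b to Polr3k (181582103 to 181870830) 5 members had −0.67. A single gene of these, Dido1, passed the test (38.6, 38.8 and 46.4% in F KSR2, adjusted p = 0.0393). The summed reads of the longer run were 40.7, 41.0 and 50.7% maternal in F KSR2 and 50.6 to 57.3% in the other lines, so F KSR2 replicate 3 overlapped with them.

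Outside these stretches, single genes differed in allele balance between a line and the other lines. Besides the imprinted Snrpn, the genes ranked for F KSR2 were Matr3, Cdon and Plod2. Matr3 (chromosome 18, 35562158 to 35592045), an RNA-binding protein of the nuclear matrix, was at 81.5, 82.9 and 76.1% maternal in F KSR2, at 43.4, 54.8 and 72.2% in F KSR4, and at 39.8 to 50.6% in the 6 male libraries (log2 difference 2.12, SE 0.286, adjusted p = 6.40e-05). Cdon (chromosome 9, 35421128 to 35507651), a co-receptor of Hedgehog signalling, was at 61.4, 61.6 and 58.5% in F KSR2 and 29.0 to 40.8% in the 9 other libraries (1.49, adjusted p = 8.92e-06). Plod2 (chromosome 9), a collagen lysyl hydroxylase, went the other way with 15.9, 24.2 and 31.7% against 40.2 to 54.9% (−1.55, adjusted p = 3.19e-05). The MEFs were at 43.8% ± 7.39 for Matr3, 56.0% ± 2.34 for Cdon and 38.0% ± 3.58 for Plod2. In the TX 2i ESCs the shares were 47.0, 54.7 and 42.5%. For Cdon, both of these groups were thus closer to F KSR2 than to the other lines. Genes were ranked only where the line's libraries did not overlap with the others, so this separation was a condition of choice.

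In F KSR4, Zranb1 (chromosome 7, 132931142 to 132986391), a deubiquitinase, was at 94.2, 96.2 and 81.0% maternal, with 173 maternal and 17 paternal reads, against 43.0 to 59.0% in the other lines (3.55, SE 0.362, adjusted p = 8.09e-06). The MEFs (51.6% ± 4.50) and the TX 2i ESCs (54.6% ± 2.05) were balanced. Irak3 (chromosome 10), a brake on Toll-like receptor signalling, was maternal in all 4 lines and reached 95.0, 93.5 and 94.9% in F KSR4 against 66.7 to 92.2% in the others (1.40, adjusted p = 0.0328). The latter difference was small in percentage points, and its adjusted p lay close to the threshold.

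M KSR3 had the clearest case of an allele without reads. Cenpk (chromosome 13, 104228955 to 104249615), a protein of the kinetochore, had 78 maternal and 0 paternal reads there, which allows a paternal share of up to 3.85%, whereas F KSR2 had 41 and 42, F KSR4 42 and 39, and M KSR5 56 and 39 maternal and paternal reads. The maternal allele was at least 26.0-fold higher in M KSR3 (adjusted p = 5.62e-07 for the difference from the other lines). Pnma2 (chromosome 14), a paraneoplastic antigen of the brain, was alike with 133 maternal and 3 paternal reads in M KSR3 and 44.1 to 68.3% maternal in the other 9 libraries (adjusted p = 2.96e-08). For both genes M KSR3 was at or near 100% and every other KSR-iPSC library below 70%. The MEFs had 16 maternal and 4 paternal reads of Pnma2, and the TX 2i ESCs 40 and 23. For Cenpk these counts were 21 and 21 in the MEFs and 14 and 28 in the TX 2i ESCs.

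Klb, paternal in all lines, was least so in M KSR3, at 17.9, 25.8 and 15.5% maternal against 0 to 14.6% in the other libraries (2.63, adjusted p = 0.00654). On the paternal side of the other lines, Myo7a, an unconventional myosin of hair cells, was at 66.9, 64.0 and 71.5% against 81.0 to 98.0% (−2.39, adjusted p = 0.0101). Syt7, a synaptotagmin, was at 14.3, 7.69 and 10.0% against 23.5 to 55.6% (−2.06, adjusted p = 0.00232). Car2 stayed above 90% in M KSR3, but its 90.5, 93.4 and 92.7% were below the 95.6 to 99.4% of the other libraries (−1.89, adjusted p = 0.00498). These 4 genes were ranked only because their libraries did not overlap. Myo7a and Klb had as few as 20 and 22 allelic reads in a library.

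In M KSR5, Abcb1a (chromosome 5), the drug efflux pump P-glycoprotein, was at 100, 95.3 and 94.8% maternal against 76.9 to 92.6% (2.09, adjusted p = 0.00557). Lmo7, a LIM domain protein of cell junctions, was at 25.3, 26.3 and 32.9% against 34.5 to 67.2% (−1.68, adjusted p = 0.0134). Plce1, a phospholipase C of Ras signalling, was at 50.5, 43.0 and 44.0% against 55.2 to 78.8% (−1.48, adjusted p = 0.0134). The MEFs were at 56.6% ± 5.17 for Lmo7 and at 46.6% ± 11.1 for Plce1, the latter close to M KSR5. In the TX 2i ESCs, Abcb1a was at 72.0%, Lmo7 at 80.5% and Plce1 at 61.4%. No overlap was again a condition of the ranking, which placed M KSR5 replicate 3 with its line for all 3 genes.

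**Figure D4:**
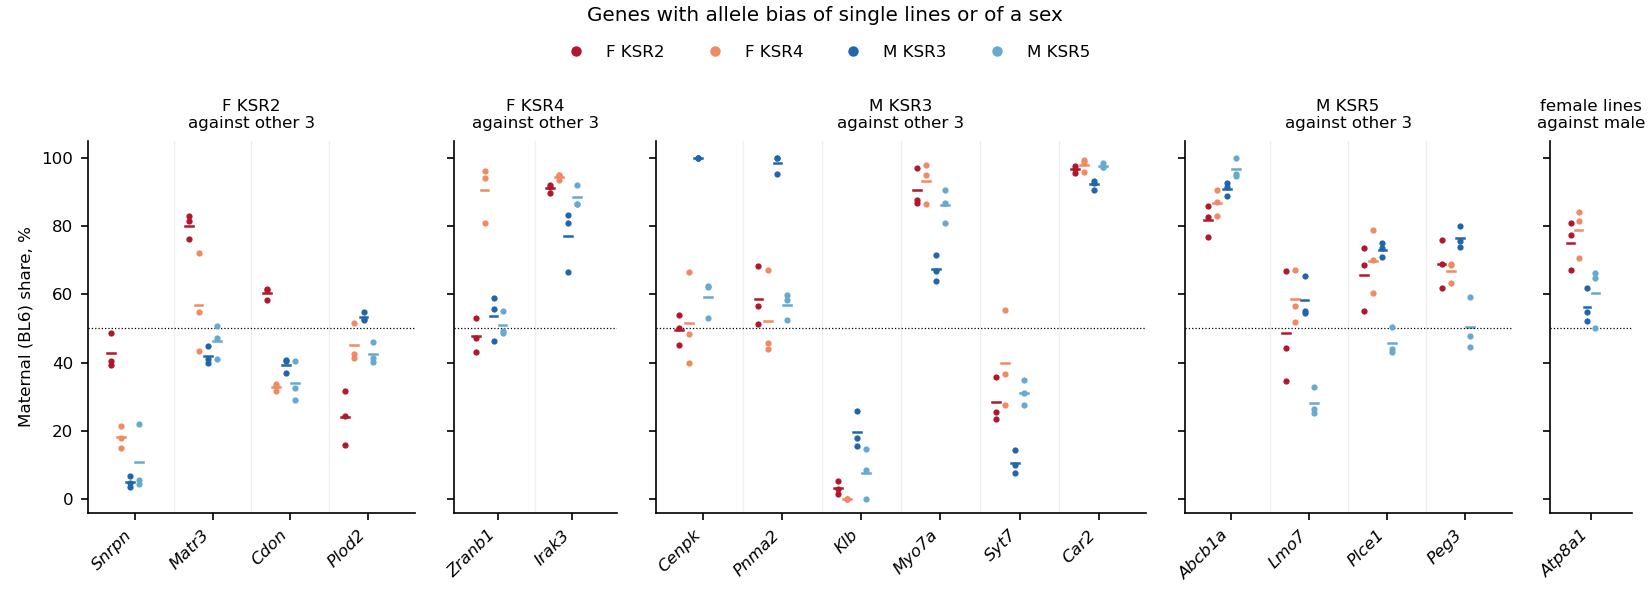
Maternal share in percent, by library, for the genes ranked in each line against the other 3 lines and in the female against the male lines; each dot is 1 library, colours mark the lines and short bars the mean of 3 libraries. In each line panel the dots of the named line are separated from all other dots, which was a condition for ranking these genes.

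Between the sexes, 29 genes were more maternal in the female lines (0.683%) and 17 more paternal (0.4%), a share of 63.0% on the maternal side that was 78.1% with the deposited values. Of the 29, 14 lay in the chromosome 9 stretch of F KSR2. Atp8a1 (chromosome 5), a phospholipid flippase, was the single gene with a 2-fold difference and no overlap of libraries, at 67.1 to 84.2% in the 6 female and 50.0 to 66.2% in the 6 male libraries (1.30, SE 0.251, adjusted p = 0.00804). The MEFs and the TX 2i ESCs, both female, had Atp8a1 means of 58.6% ± 17.2 and 63.8% ± 4.50, within the range of the male libraries. The calls between the sexes measure the spread between libraries within a line, not between the lines of a sex.

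Imprinted genes are typically expressed from a single parental allele. A list of known imprinted genes held 47 on these chromosomes, and 16 of these were members. The list was fixed by name and did not hold Tnfrsf23. Of the 16, 2 were shared on the maternal side (Sfmbt2 and Cd81) and 2 on the paternal side (Inpp5f and Impact), beside the 8.69 and 6.81% of all members. None of the 16 was beyond 2-fold in all 12 libraries. Their median absolute log2 ratio in the KSR-iPSCs was 0.31 against 0.23 for all members. Against the MEFs, 9 of the 14 that could be tested were called, beside 15.2% of all genes tested, with a median absolute difference of 1.18 against 0.20 over all genes tested. Against the TX 2i ESCs 2 of the 14 were called, beside 5.90% of all genes.

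The genes known to be paternally expressed held maternal reads in the lines that the MEFs lacked or had few of. Peg3, a zinc finger protein, had 0 maternal and 1434 paternal reads in the MEFs (up to 0.209% maternal) and 44.5 to 80.0% maternal reads in the 12 libraries, with M KSR5 lowest at 44.5, 47.9 and 59.3% (−1.28 against the other lines, adjusted p = 0.000631). Snrpn, a splicing factor of the Prader-Willi region, had 0 maternal and 136 paternal reads in the MEFs and ranged from 4.97% ± 1.60 in M KSR3 to 42.8% ± 5.17 in F KSR2 (2.89 against the other lines, adjusted p = 1.19e-05). Its M KSR5 libraries were at 5.65, 4.36 and 22.1%. The last value is from the library with the raised fibroblast markers, whereas the MEFs themselves had 0 maternal Snrpn reads. The cause of this value was not tested.

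Impact, a regulator of translation, was at 3.59% ± 0.705 in the MEFs and at 38.2% ± 0.648 in M KSR3, 39.7% ± 1.74 in F KSR2, 35.3, 53.0 and 31.8% in F KSR4 and 24.8% ± 3.67 in M KSR5 (3.87 against the MEFs, adjusted p = 8.89e-18). The maternally expressed H19 and Igf2r were almost wholly maternal in the MEFs (99.9% ± 0.100 and 99.7% ± 0.272) and were at 33.0 to 72.5% and 41.1 to 53.2% in the 12 libraries (−9.66 and −8.72, adjusted p = 3.71e-20 and 4.69e-21). For H19, M KSR5 replicate 3 was at 72.5% and the other M KSR5 libraries at 35.7 and 33.0%. The former library had the raised fibroblast markers, and their part in its H19 share was not tested.

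Less familiar members of the list behaved otherwise. Sfmbt2, a Polycomb protein known for paternal expression in the placenta, was 61.5 to 79.1% maternal in the 12 libraries and 38.6% ± 4.54 in the MEFs (1.91, adjusted p = 5.58e-08). Inpp5f, a phosphoinositide phosphatase, was at 15.7 to 44.6% maternal, at 54.4% ± 3.17 in the MEFs and at 14.8% ± 4.98 in the TX 2i ESCs. Dhcr7, of cholesterol synthesis, was at 38.5% ± 2.49 in the MEFs and 46.4 to 59.2% in the lines (0.94, adjusted p = 1.44e-05). Cd81, a tetraspanin, was alike in lines and MEFs, at 60.6 to 65.9% over the line means and 65.6% ± 1.96 (adjusted p = 0.413), and its shared call was lost on the deposited scale (0.39). H13, a signal peptide peptidase, was at 65.1% ± 0.417 in the MEFs and 40.3 to 56.0% in the lines (−0.96, adjusted p = 0.000323).

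Mcts2, which lies within H13, Tssc4, Nap1l4, Ube3a, Gnas and Ampd3 had line means between 40.1 and 61.4% and none was called shared. The 3 MEF libraries of Mcts2 were at 0, 0 and 7.69% maternal with too few reads for the test.

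**Figure D5:**
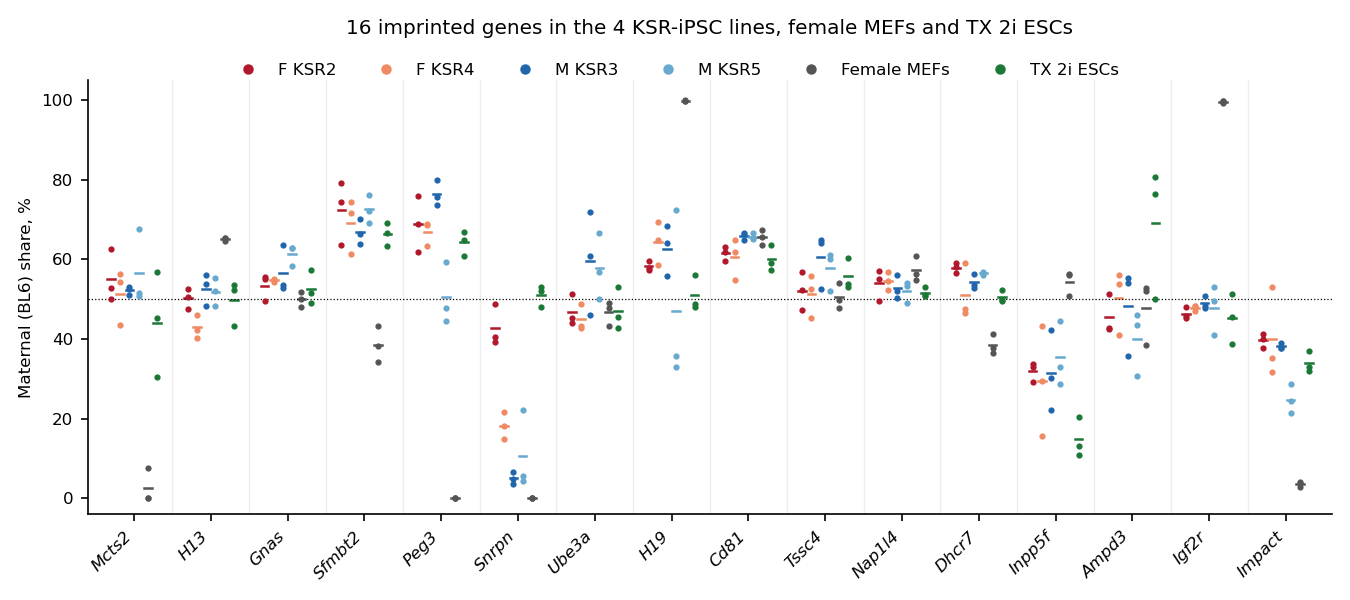
Maternal share in percent of the 16 imprinted members, by library (dots, with a short bar at the mean), in the 4 KSR-iPSC lines, the MEFs and the TX 2i ESCs. The MEFs sit at or near 0% for Peg3, Snrpn and Impact and near 100% for H19 and Igf2r, where most KSR-iPSC libraries lie in between.

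Pluripotency genes were shared on both sides. Of 14 on these chromosomes, 13 were members, and 5 were shared on the maternal and 2 on the paternal side, beside 8.69 and 6.81% of all members. Tdgf1, the Nodal co-receptor Cripto, had 63.8 to 75.2% maternal reads in the 12 libraries (1.29, SE 0.050, adjusted p = 9.10e-16). Fgf4, the growth factor that primes differentiation, had 58.8 to 66.7% (0.75), and Zfp57, which guards methylated imprints, 50.0 to 79.3% (0.94). Otx2, a factor of primed pluripotency, was strongly paternal with 5.13 to 32.0% (−2.33, SE 0.179, adjusted p = 1.84e-10) and was at 3.36% ± 1.17 in the TX 2i ESCs.

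Sox2 (chromosome 3), also a factor of the maternal cassette, was at 59.9% ± 0.859 in M KSR3, 61.0% ± 3.33 in M KSR5, 58.5% ± 1.99 in F KSR2 and 59.3% ± 1.19 in F KSR4, and at 60.9% ± 1.71 in the TX 2i ESCs, which do not carry the cassette. Dppa5a was weakly maternal in the lines (55.2 to 60.7% over the line means) and paternal in the TX 2i ESCs (42.7% ± 1.32). Trim28, the co-repressor that works with Zfp57, was slightly paternal at 44.6 to 48.4% (−0.29). On the deposited scale, Sox2 (0.16), Dppa5a (0.05) and Zfp57 (0.64) stayed positive but were not called, whereas Tbx3 (−0.70), Utf1 (−0.55), Dnmt3b (−0.57), Nnt (−0.89), Igf2r (−0.54) and Snrpn were called paternal in all 4 lines on that scale. Klf5, Tbx3, Utf1, Sall4, Tdh and Dnmt3l had line means of 43.1 to 58.4% and were not called shared.

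Among the DNA methylation genes, 1 of 6 members was shared on each side, beside 8.69 and 6.81% of all members. Uhrf1, which brings the maintenance methyltransferase to replicated DNA, was at 53.1 to 60.5% maternal (0.30, adjusted p = 1.86e-07) and Dnmt1, that methyltransferase, at 44.9 to 50.4% (−0.31, adjusted p = 4.54e-08). Both calls depended on the scaling: Dnmt1 was not called without centring, and Uhrf1 not on the deposited scale. Tet1, Tet2, Dnmt3b and Dnmt3l were not called shared.

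A further list held genes of the MHC region by the symbol prefix H2- and not by function, and 4 were members. H2-K1, a classical class I molecule, was strongly maternal with 76.2 to 97.6% (3.14, SE 0.214, adjusted p = 2.30e-11), as in the MEFs (95.7, 93.6 and 96.4%). H2-Ke2 was at 54.1 to 72.7% (0.82). H2-Ke6 and H2-M5 were not called shared (line means of 53.0 to 65.6% and 64.9 to 76.6%), although H2-M5 was called without centring. Nnt, whose mitochondrial transhydrogenase carries a deletion in C57BL/6J mice, was 37.1 to 46.2% maternal over the line means and not called shared, against 34.0% ± 1.03 in the MEFs. Of 104 zinc finger genes, 8 were shared on the maternal and 1 on the paternal side, beside background shares of 8.69 and 6.81%. Of 45 ribosomal protein genes, 14 were shared maternal and 15 paternal, beside 8.69 and 6.81% of all members. Beyond 2-fold in all libraries were 2 and 6 of them, beside 1.11 and 0.895% of all members. Their median absolute log2 ratio was 0.43 against 0.23 for all members. They were not matched for depth, and their reads can be split with processed pseudogenes.

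Against the MEFs, 302 genes were more maternal in the KSR-iPSCs (7.85% of the 3845 genes with enough reads in all 18 libraries) and 284 more paternal (7.39%), and 54 and 46 of these were also at least 2-fold and without overlap. The maternal side held 51.5% of the calls, and 25.5% with the deposited values. Beyond the genes on the list of imprinted genes, the ranking named Dpysl3, Tnfrsf23 and Thy1. Thy1 (chromosome 9), a surface glycoprotein of fibroblasts, was at 96.4% ± 1.19 in the MEFs and 34.4 to 83.3% in the lines, with the highest value in M KSR5 replicate 3 (−4.59, adjusted p = 7.77e-10). It is itself a fibroblast marker, and the part of residual fibroblast RNA in its share was not tested. In bulk libraries, fewer cells using an allele and less RNA of that allele per cell cannot be told apart.

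Against the TX 2i ESCs, 132 genes were more maternal in the KSR-iPSCs (3.43%) and 95 more paternal (2.47%). The maternal side held 58.1% of these calls but 6.11% with the deposited values, so their balance of directions rests on the centring. Chromosome 13 held 43 of the 227 calls, 17.9% of its 240 genes against 5.90% over all chromosomes, and 37 of the 43 were more maternal in the KSR-iPSCs. Papd4, a cytoplasmic poly(A) polymerase, had 0 maternal and 145 paternal reads in the TX 2i ESCs (up to 2.07% maternal) and was at 39.4 to 63.9% in the lines (adjusted p = 1.16e-14). Sptlc1, a subunit of serine palmitoyltransferase, had 4 maternal and 173 paternal reads there and was at 38.7 to 66.4% in the lines (adjusted p = 3.26e-15). Both lie on chromosome 13, as does F2rl1, the protease-activated receptor 2, at 21.3% ± 3.07 in the TX 2i ESCs and 66.9 to 79.7% in the lines (3.23, adjusted p = 1.54e-14).

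The other ranked genes lay elsewhere. Rab5a (chromosome 17), a GTPase of early endosomes, was at 16.3, 16.6 and 16.5% in the TX 2i ESCs and 39.5 to 52.1% in the lines (2.16, SE 0.130, adjusted p = 1.72e-13). Towards the paternal side, Irak3 was at 98.9% ± 1.86 in the TX 2i ESCs against 66.7 to 95.0% in the lines, and Acox3, a peroxisomal oxidase, at 90.1% ± 5.01 against 61.9 to 82.5% (−2.14, adjusted p = 3.24e-06). Lmo7 was at 80.5% ± 3.64 against 25.3 to 67.2% (−2.19), and Tmc7, of the transmembrane channel-like family, at 58.2% ± 3.47 against 5.77 to 43.2% (−1.95, adjusted p = 0.00239). In each of these genes the TX 2i ESC libraries lay outside the range of the 12 KSR-iPSC libraries, as the ranking required.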

How the data were processed

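RNA-seq libraries were prepared by the authors from total RNA of biological triplicates and aligned to GRCm38; per the labels, Trim Galore (0.6.1 and 0.6.5), cutadapt 2.3, Bismark 0.22.3, HISAT2 2.1.0 and edgeR were used across the series. The authors deposited log2 RPM (reads scaled to a common library total) for each gene, separately for all, maternal, paternal and unassigned reads, each scaled to its own total. From these log2 values the reads were recovered: the lowest value of a column was taken as 0 reads, and at least 99.97% of the values of each column came out whole within 0.05 read. Alleles with 0 reads were held at 0.9 read. Because the deposited unit is log2, limma 3.58.1 (R 4.3.3) was used in place of a count model, on the log2 ratio of maternal to paternal reads within each library less the library median, with equal weights, a mean per group and an intensity trend; adjusted p-values are Benjamini-Hochberg over all genes tested. The 4 lines were fitted on 12 libraries (4246 genes), and the MEFs and TX 2i ESCs on 18 (3845 genes).

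Replicate numbers did not pair the libraries (correlations of same-numbered residuals of −0.0753 to 0.0563 over 18 pairs), and no replicate pair held identical values. The p-values measure the spread between libraries within groups, pooled over all groups of the fit. A line is 1 clone, and the p-values do not measure the spread between clones, also not in the comparison of the sexes. Members and lists were chosen with earlier results of these data known. Ranked genes were the 8 per direction with the largest shared bias beyond 2-fold in all libraries, the 3 per direction for each line and for sex, and the 4 per direction against MEFs and TX 2i ESCs, with an adjusted p below 0.05, a difference of at least 1 and no overlap; predicted genes, pseudogenes and ribosomal protein genes were counted but not ranked. In tests on made-up data with known changes in 200 genes, 93% of 2-fold and 100% of 4-fold shared biases were found, 84 and 99% of differences of 1 line, and 96 and 100% against the MEFs, with 0, 8 and 22 false calls. Alternatives were no centring, the deposited scale, 1 read added to each allele, minimums of 10 and 50 reads, precision weights, a replicate block, other units of the fit, a log2 difference of at least 1 and each library left out. Figures were drawn with matplotlib 3.10.9. Methylation amplicon data and unassigned reads were not used here. A result on an item withheld from this text is not reported here.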

Additional observations from a re-analysis of the deposited data

Results flagged for a closer look

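The following genes differed between groups under the same contrast, by the limma tests given above. The log2 differences of a line from the other 3 were 2.89 for Snrpn, 2.12 for Matr3, 1.49 for Cdon and −1.55 for Plod2 in F KSR2, and 3.55 for Zranb1 and 1.40 for Irak3 in F KSR4. They were 4.65 for Cenpk, 4.64 for Pnma2, 2.63 for Klb, −2.39 for Myo7a, −2.06 for Syt7 and −1.89 for Car2 in M KSR3. In M KSR5 they were 2.09 for Abcb1a, −1.68 for Lmo7, −1.48 for Plce1 and −1.28 for Peg3, and between the sexes 1.30 for Atp8a1.

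Between the KSR-iPSCs and the MEFs the differences were 10.00 for Peg3, 3.87 for Impact, 3.21 for Dpysl3 and 3.04 for Snrpn on the maternal side, and −9.66 for H19, −8.72 for Igf2r, −5.04 for Tnfrsf23 and −4.59 for Thy1 on the paternal side. Between the KSR-iPSCs and the TX 2i ESCs they were 5.94 for Papd4, 5.71 for Sptlc1, 3.23 for F2rl1 and 2.16 for Rab5a, and −2.27 for Irak3, −2.19 for Lmo7, −2.14 for Acox3 and −1.95 for Tmc7. For Cenpk, Klb, Peg3, Snrpn and Papd4, a group had no reads of an allele, so the fitted value depends on the 0.9 read that stands for 0 and is not a bound. Single libraries without reads of an allele also entered the values of Pnma2, Abcb1a and Tnfrsf23, and of Irak3 against the TX 2i ESCs. The 0.9 read stands for 0 in those libraries too.

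Data outside the genes analysed also carried a signal above the MEFs. On the chromosomes left out, the maternal share of the allelic reads was 68.0% on chromosome 1 in M KSR3 (50.9% in the MEFs), 96.8% on chromosome 6 in F KSR2 (54.0%), 62.8% on chromosome 8 in F KSR4 and 65.3% in M KSR3 (51.6%), 61.7% on chromosome 11 in M KSR3 (51.0%) and 62.1% on chromosome 15 in M KSR5 (51.3%).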

How the results depend on the processing

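The 658 shared calls became 1068 with the deposited values, 2027 with the 4 line means as the units, 2352 with the mean of the 4 lines tested against 0 and 150 with a log2 ratio of at least 1 in each line; with the deposited values 453 of the 658 were called too. Requiring a log2 difference of at least 1 left 16 of 46 calls between the sexes, 139 of 586 against the MEFs, 76 of 227 against the TX 2i ESCs, and 20 of 48 in M KSR3, 7 of 12 in M KSR5, 25 of 44 in F KSR2 and 5 of 11 in F KSR4. The deposited values gave 1031 calls against the TX 2i ESCs and 115 in M KSR3. With 1 mean per KSR-iPSC line, 148 genes were called against the TX 2i ESCs, and with all 18 libraries in the fit 24 in F KSR4. Without the runs of neighbouring genes, an alternative chosen after seeing the data, 15 calls were left in F KSR2 and 30 between the sexes.

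With the replicate number as a block, there were 654 shared calls, 44 between the sexes, 575 against the MEFs, 217 against the TX 2i ESCs, and 45 in M KSR3, 13 in M KSR5, 42 in F KSR2 and 11 in F KSR4, and no count moved by over 1.5 times. Replicate numbers did not pair the samples.

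Leaving out each library in turn gave 542 to 647 shared calls, 28 to 61 between the sexes, 401 to 614 against the MEFs, 138 to 260 against the TX 2i ESCs, and 19 to 75 in M KSR3, 3 to 18 in M KSR5, 28 to 57 in F KSR2 and 9 to 41 in F KSR4. A count moved by over 1.5 times between the sexes without M KSR3 replicate 2 (28) or 3 (30), against the TX 2i ESCs without TX 2i ESCs replicate 1 (138), 2 (149) or 3 (149), in F KSR2 without its replicate 1 (28), in F KSR4 without its replicate 1 (41), 2 (26) or 3 (20), in M KSR3 without F KSR4 replicate 2 (75) or M KSR3 replicate 2 (19) or 3 (22), and in M KSR5 without its replicate 1 (4) or 2 (3). The causes were not tested.

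Of the 53 results on named genes and runs, none reversed. Of 405 values under settings other than a left-out library, 397 kept their call, and of 732 with a library left out, 713 did. Calls were lost for Irak3 in F KSR4 (1.22 with 1 read added to each allele, 1.51 with precision weights, 1.40 with all 18 libraries, and 1.32 to 1.41 without F KSR2 replicate 1 or 2, F KSR4 replicate 1 or 3 or M KSR5 replicate 1 or 2), for Syt7, Car2 and Abcb1a and for Snrpn against the MEFs and Irak3 against the TX 2i ESCs under precision weights, for Klb without M KSR3 replicate 2 (2.36), Myo7a without M KSR3 replicate 1, 2 or 3 (−2.36, −2.28 and −2.53), Car2 without M KSR3 replicate 1 (−1.72), Abcb1a without M KSR5 replicate 1 (1.49), Lmo7 without M KSR5 replicate 1 or 2 (−1.58 and −1.62) and Plce1 without M KSR5 replicate 1, 2 or 3 (−1.61, −1.39 and −1.42). The chromosome 2 runs of F KSR2 had medians of −0.69 without its replicate 3 and −0.31 without its replicate 2. Depth limits single genes: at 20 allelic reads the interval of an even split runs from 29.9 to 70.1% maternal.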
